A study of Mus musculus with 15 samples.

Results

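The nerve injury and regeneration genes described here are Atf3, Jun, Sox11, Smad1, Klf6, Gap43, Stmn4, Sprr1a, Ecel1 and Gadd45a, 10 of the 55573 genes in the count table, chosen by name because axon damage is known to switch them on in sensory neurons. Their RNA was measured in 15 mouse trigeminal ganglia (TG), the ganglia that hold the cell bodies of the sensory neurons of the face, including those that innervate the cornea. All 15 samples came from right TG of 10-week-old male CD1 mice whose right cornea had been injured by removal of the central epithelium and anterior stroma, and each TG was collected on day 12. The injured eyes were treated 3 times per day with vehicle, with Resolvin D6 (RvD6, labelled RvD6-standard) or with its stereoisomer RvD6si (labelled RvD6-isomer), 5 samples per group. Both lipids are dihydroxy derivatives of docosahexaenoic acid that carry their hydroxyl groups on the same carbons. The samples include no uninjured TG, so each value is a level after injury, and a comparison with vehicle shows how a lipid-treated TG differed from an injured TG that received no lipid. Neurons of the cornea are a small part of a TG, and in bulk RNA fewer cells of a type and less RNA per cell cannot be told apart.

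After an axon is cut, the cell body of a sensory neuron is known to change its transcription so that the axon can grow again. Stress signals from the axon reach the nucleus through kinases such as DLK (Map3k12) and JNK, and activate transcription factors of the ATF and Jun families. Atf3 is the classical marker of this response. It pairs with Jun, and together with Sox11, Smad1 and Klf6 it belongs to the regeneration-associated transcription factors. Genes that act downstream encode proteins of the growth cone and axon, among them Gap43, Stmn4 and Sprr1a. Ecel1, a membrane peptidase also called DINE, and Gadd45a, a stress response gene, are also induced in injured sensory neurons.

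Read totals on genes ranged from 4125962 to 9903396 per library, with a median of 7756538. Sensory neuron markers (13 genes, none at 0) summed to between 8360 and 17800 CPM (counts scaled to the TMM-normalized library size) over the 15 libraries. The RvD6 libraries were high in markers of several other tissues, in some lists with overlap between the groups. The 8 skeletal muscle markers summed to 92.4 to 3090 CPM in RvD6, 19.8 to 158 CPM in vehicle and 12 to 31.9 CPM in RvD6si. The 9 markers of neutrophils and their marrow precursors summed to 692 to 2240 CPM in RvD6 and 110 to 590 CPM in vehicle, while 4 of the RvD6si libraries lay between 54.4 and 126 CPM and RvD6si replicate 15 at 1970 CPM. The summed sensory neuron markers were at 8360 to 15600 CPM in RvD6, 14600 to 16600 CPM in vehicle and 13400 to 17800 CPM in RvD6si. The 8 satellite glia markers summed to 6680 to 8320 CPM in RvD6, below all vehicle libraries (8550 to 10400 CPM), and to 6150 to 9280 CPM in RvD6si. In RvD6 against vehicle their median log2 fold change was 0.01, with 0 higher and 1 lower at an unadjusted p under 0.05. The 6 erythroid markers were all higher in RvD6 than in vehicle at an unadjusted p under 0.05, with sums of 5730 to 10600 CPM against 2380 to 5060 CPM, and ran from 935 to 12000 CPM in RvD6si, where replicate 15 was the highest. Of 6 fibroblast markers 3 were higher in RvD6 at that p, with sums of 1380 to 2260 CPM in RvD6 and 1370 to 1670 CPM in vehicle. The 8 keratinocyte and epithelium markers, of which 2 passed the filter on low counts, summed to 4.97 to 32.5 CPM in RvD6, 0 to 4.79 CPM in vehicle and 0.64 to 14 CPM in RvD6si. The 6 pituitary markers did not follow this order. They summed to 226 to 2300 CPM in RvD6, 9.97 to 3750 CPM in vehicle and 19.9 to 657 CPM in RvD6si, with the highest value in vehicle replicate 3. None of the muscle, marrow or neuron markers was at 0 throughout a group. The mean levels of these last 3 lists also served as covariates, each in a fit of its own added after the data had been seen, and values from those fits stand beside several results on RvD6. The part of the other lists in the results was not tested.

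**Figure D1:**
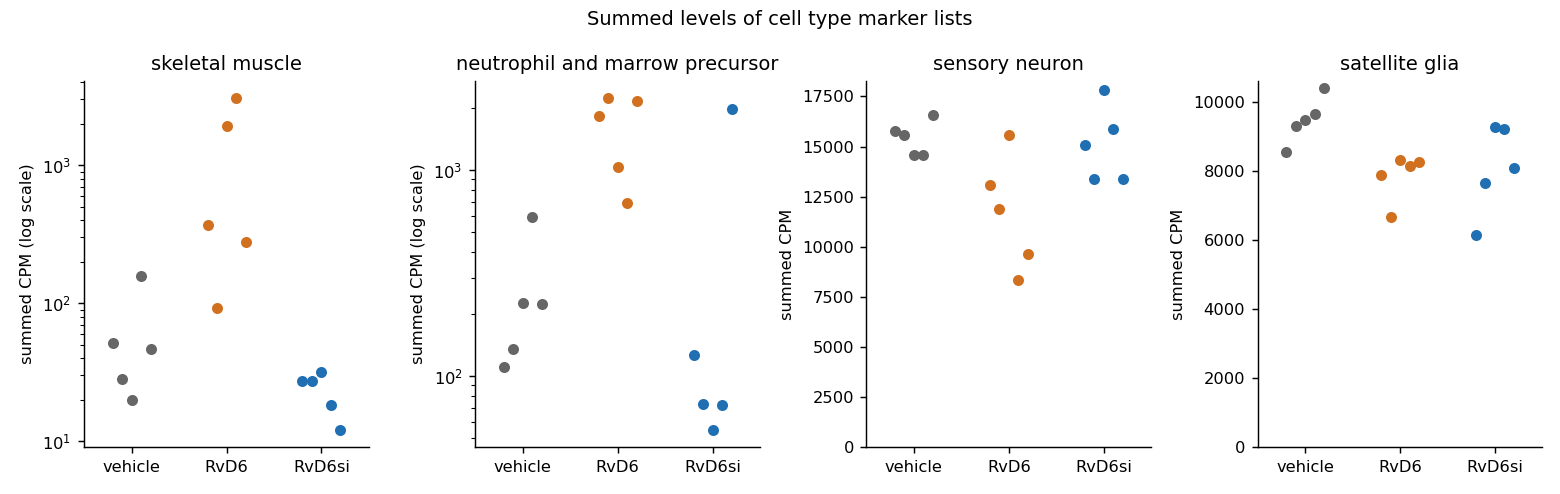
Summed CPM of 4 marker lists in each library (points) by treatment group, with log axes for skeletal muscle and for neutrophils and marrow precursors, and linear axes for sensory neurons and satellite glia. RvD6 libraries reach 3090 CPM for muscle, where no RvD6si library passes 31.9 CPM, and RvD6si replicate 15 stands at 1970 CPM in the marrow panel.

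The members differed widely in level. Compared per kilobase of exon, the mean level over the 15 TG was highest for Gap43, a growth cone protein that neurons make in large amounts, with 104 ± 17.4 CPM per kb (SD, n = 15). Jun (22.4 ± 5.35 CPM per kb) and Klf6 (18.1 ± 2.2 CPM per kb) came next, and then Gadd45a (8.81 ± 2.96), Atf3 (7.83 ± 3.02) and Smad1 (5.92 ± 1.01 CPM per kb). Sprr1a (1.45 ± 1.09), Stmn4 (1.29 ± 0.694), Sox11 (0.987 ± 0.643) and Ecel1 (0.347 ± 0.531 CPM per kb) were low. The range of Gap43 (78.3 to 139 CPM per kb) lay above that of every other member. Jun and Klf6 overlapped each other, Gadd45a, Atf3 and Smad1 overlapped each other, and the 4 lowest members overlapped each other, so the order within these sets was not larger than their spread over libraries. The first of these sets also overlapped with the next, since Jun (from 12.2 CPM per kb) and Klf6 (from 14.5) reached below the highest Gadd45a value (15.2), and Jun below the highest Atf3 value (12.5 CPM per kb). No value of Gadd45a, Atf3 or Smad1 (at least 3.27 CPM per kb) fell below 3.09 CPM per kb, the highest value of the 4 lowest members.

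For 8 members a promoter was found by symbol in the RefSeq table of mouse promoters (GRCm38.p6). These were searched, over the 250 bases before the annotated start and on both strands, for 7 letter patterns that ATF, Jun and other transcription factors are known to bind. The pattern TGACATCA, which ATF and Jun dimers are known to bind, was found in 4 of the 8 promoters and in 2.93% of all 32851 promoters of the table. The patterns were picked with the ATF and Jun families in mind. Another of the 7 is named after the Jun promoter, so matches in Jun are not independent of this choice. The difference between the shares was not tested. The windows are shown because both Atf3 and Jun, members themselves, belong to the families that recognise these letters. They were chosen after the matches had been seen. Each window is written 5′ to 3′ on the strand of the gene, with the matched letters in capitals.
Jun (chr4:95052250-95052277, minus strand, first matched base 45 bases before the start): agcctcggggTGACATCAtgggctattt
Sox11 (chr12:27342743-27342770, minus strand, 42 bases before the start, the pattern on the opposite strand): gtgggagtagTGATGTCAcccatatgac
Klf6 (chr13:5861360-5861387, plus strand, 119 bases before the start): tggtgcgagcTGACATCAtcgtcgcgca
Sprr1a (chr3:92486071-92486098, minus strand, 207 bases before the start): agaacccaggTGACATCAttgtcaaact

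The Sprr1a promoter also held the AP-1 pattern (TGACTCA or TGAGTCA), which Jun and Fos dimers are known to bind, at 2 places, 146 and 116 bases before the start. It was the only one of the 8 promoters with this pattern, which 4.46% of all promoters held.
Sprr1a (chr3:92486011-92486037, minus strand, 146 bases before the start): taactaaagcTGAGTCAgagggtgaac
Sprr1a (chr3:92485981-92486007, minus strand, 116 bases before the start): gggaggagggTGAGTCAtaggtgactg

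Of the other patterns, the cyclic AMP response element TGACGTCA (1.55% of all promoters) was in 0 of the 8. Its shorter form TGACG (17.8%) was in those of Atf3 and Smad1. TTACCTCA (0.728%), the pattern named after the Jun promoter, was in that of Jun, a match that the choice of pattern had fixed. The E-box CACGTG (6.02%) was in that of Klf6, and the CArG box (1.47%) in 0 of the 8. The shorter form also matches within TGACGTCA, and no other pattern contains another. These are matches of letters and no measurement of binding.

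RvD6si and vehicle were compared to ask whether TG of RvD6si-treated eyes held other levels of injury genes than vehicle TG on day 12. By the quasi-likelihood F test of edgeR over 16567 genes, where a Benjamini-Hochberg adjusted p under 0.05 counted as a change, 0 of the 9 members that passed the filter on low counts changed, where 0.67% of all genes tested did. DESeq2 also called 0 members, beside 2.8% of the 32491 genes it tested without that filter. It gave no adjusted p for Stmn4 and Sprr1a, so these could not be called by it. Atf3 had the largest difference from 0 relative to its error, with a lower mean in RvD6si, and its adjusted p did not pass the threshold. At an unadjusted p under 0.05, 1 of 9 members was lower, where 7.3% of all genes tested were lower, and 0 of 9 were higher, where 8.69% of all genes were. The groups overlapped for each of the 9 members, where they did not for 4.91% of all genes tested. The median log2 fold change of the 9 members was -0.08, beside 0.02 for all genes tested.

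RvD6 and vehicle gave 0 called members of 9 and 0 called genes of 16567 by the same edgeR test, a share of 0%. DESeq2 called 367 genes in this comparison and 0 members. None of the 9 members had an unadjusted p under 0.05 in either direction, where 7.63% of all genes tested were higher and 5.99% lower, and groups overlapped for each member, where they did not for 3.77% of all genes. The median log2 fold change of the 9 members was -0.10, beside 0.02 for all genes.

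RvD6si and RvD6, given at the same times and through the same route, differ in stereochemistry (the labels give no dose). They also differ in source. The paper isolated its RvD6si from mouse tears and cornea culture medium, while its RvD6 standard was a gift from another laboratory. Effects of isomer and of source cannot be told apart here. Between them 0 of 9 members passed the edgeR test, beside 0.235% of all genes tested. DESeq2 called 0 members, beside 0.569% of the 32491 genes it tested. None of the 9 had an unadjusted p under 0.05, where 4.18% of all genes were higher and 4.64% lower in RvD6si, and none was without overlap between the groups, where 1.81% of all genes were. The median of the members was 0.25 on the log2 scale, beside 0 for all genes. All 3 comparisons share samples, so their values are not independent of each other.

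**Figure D2:**
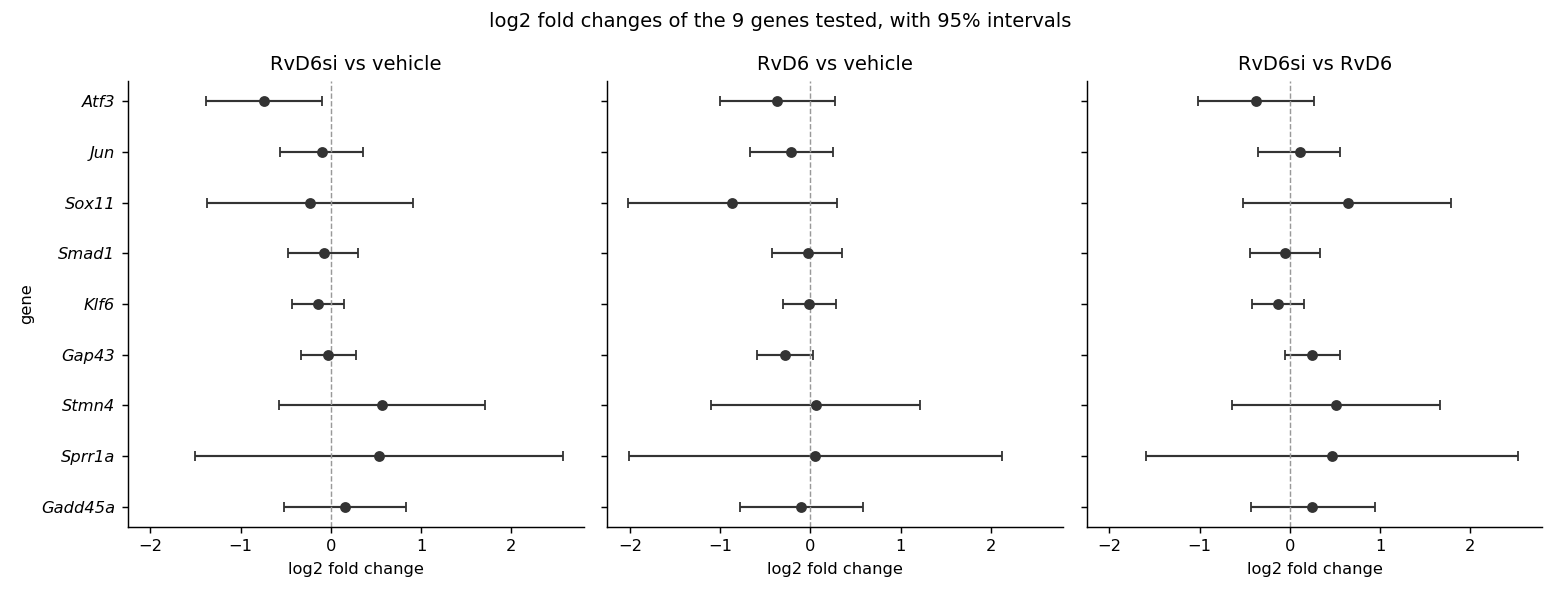
log2 fold change (x axis) of each of the 9 genes tested (y axis) in the 3 comparisons, by edgeR over 5 samples per group; points are estimates and bars their 95% intervals. The interval of Atf3 in RvD6si against vehicle runs from -1.38 to -0.10, and every other interval includes 0.

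Atf3, the stress-induced transcription factor by which injured sensory neurons are usually recognised (GRCm38, chromosome 1, 191170296 to 191218039, minus strand), was counted 61 to 242 times per library. In vehicle it stood at 9.87, 25.7, 27, 21.7 and 22.4 CPM in replicates 1 to 5. In RvD6 it stood at 19.5, 11.2, 14.4, 10.5 and 26.9 CPM in replicates 6 to 10, and in RvD6si at 9.97, 10.2, 14.5, 11.8 and 17.4 CPM in replicates 11 to 15. Of the vehicle libraries, 4 lay above all 5 RvD6si libraries, and vehicle replicate 1 lay below them all. The RvD6 libraries spread over most of the range of the other groups. The log2 fold change of Atf3 in RvD6si against vehicle was -0.74 (SE 0.31, 95% interval -1.38 to -0.10), with an adjusted p = 0.238 by edgeR (0.0263 before adjustment). By DESeq2 the adjusted p was 0.129 with all samples and 0.0966 with these groups alone. Leaving out 1 library at a time moved the value between -0.93 and -0.64. The unadjusted p rose above 0.05 without vehicle replicate 2 (0.0555), vehicle replicate 3 (0.0684), RvD6si replicate 11 (0.0598) or RvD6si replicate 12 (0.0564), and after removal of each library's trend on gene length (0.0515). In RvD6 against vehicle the log2 fold change was -0.37 (SE 0.30, 95% interval -1 to 0.27, adjusted p = 0.635 by edgeR), and in RvD6si against RvD6 it was -0.37 (SE 0.31, 95% interval -1.02 to 0.27, adjusted p = 0.771 by edgeR). The value for RvD6 against vehicle was 0.06 with the muscle marker level as a covariate, -0.78 with that of the marrow markers (adjusted p = 0.659 by edgeR) and -0.53 with that of the sensory neuron markers, and between the lipids it was -0.91, 0.09 and -0.19.

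**Figure D3:**
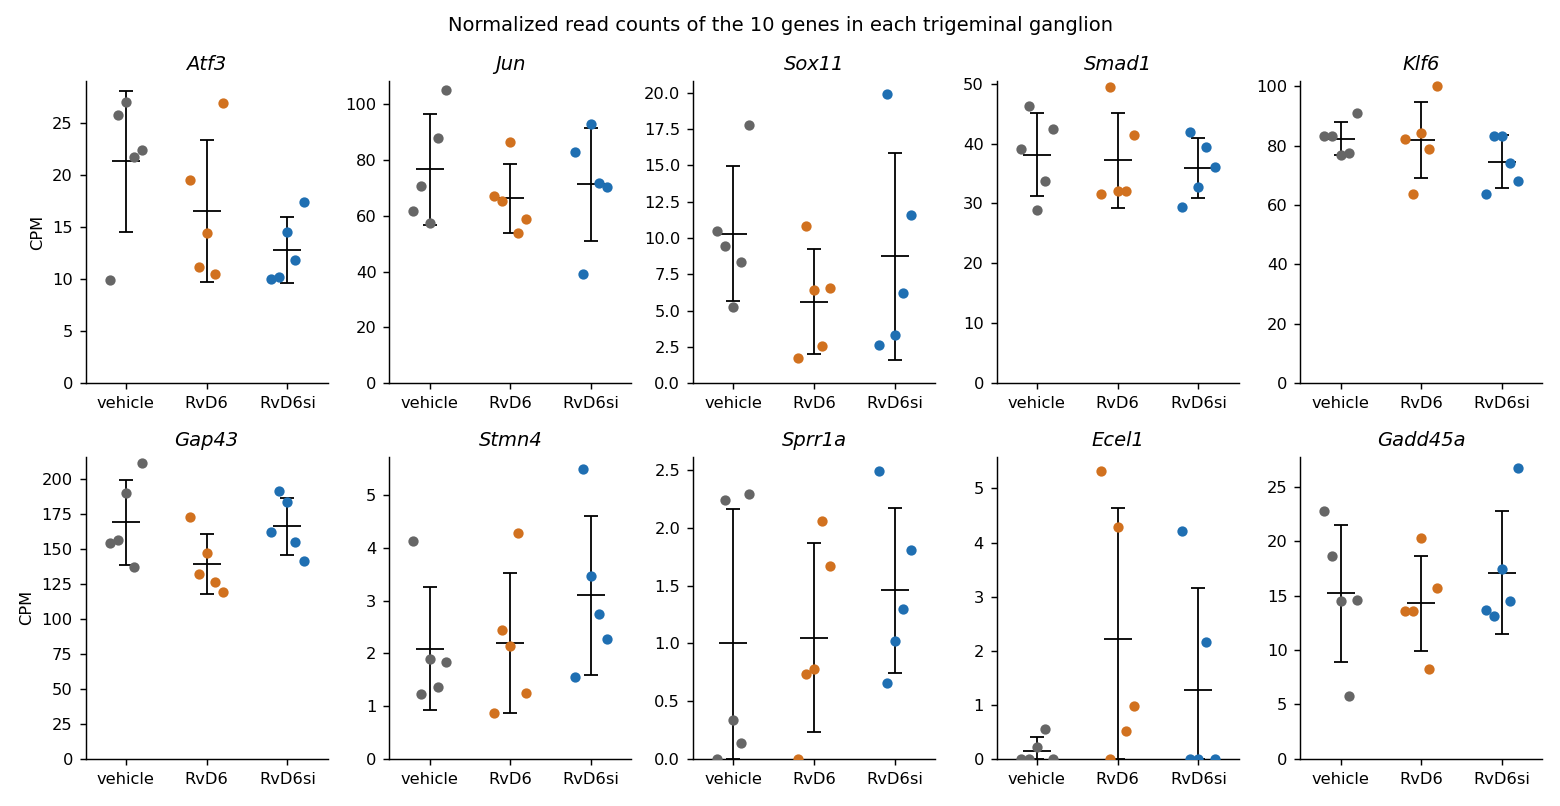
CPM (y axes, from 0) of the 10 genes in each of the 15 libraries (points, 5 per group); the long tick is the group mean and the bars are ± 1 SD, cut at 0 where the SD is larger than the mean. Atf3 shows 4 vehicle libraries between 21.7 and 27 CPM and 1 at 9.87 CPM, with the RvD6si libraries between 9.97 and 17.4 CPM.

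Jun, the AP-1 subunit that pairs with Atf3 and is needed for efficient axon regeneration (chromosome 4, 95049034 to 95052222, minus strand), was present at 57.3 to 105 CPM in vehicle, 54 to 86.3 CPM in RvD6 and 39 to 92.9 CPM in RvD6si. RvD6si replicate 12 held the lowest level (39 CPM) and vehicle replicate 5 the highest (105 CPM). The log2 fold change was -0.10 (95% interval -0.56 to 0.36) in RvD6si against vehicle, -0.21 (-0.67 to 0.25) in RvD6 against vehicle and 0.11 (-0.35 to 0.56) between the lipids. Jun shares 232 exon bases with the antisense gene Junos, and reads there were not counted for either gene, since strand was not used.

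Sox11, a transcription factor of developing neurons that is made again after axotomy (chromosome 12, 27334264 to 27342574, minus strand), varied most for its level among the transcription factors. Its SD within groups was 0.96 on the log2 scale, beside a median of 0.64 for 2158 genes of like level. Vehicle libraries held 10.5, 9.44, 5.24, 8.38 and 17.8 CPM, RvD6 libraries 1.74, 10.8, 6.43, 2.57 and 6.54 CPM, and RvD6si libraries 2.65, 19.9, 3.33, 6.21 and 11.6 CPM. Both lipid groups held libraries below the lowest vehicle value (5.24 CPM), and RvD6si replicate 12 held the highest value of all. The log2 fold change was -0.87 (SE 0.55, 95% interval -2.02 to 0.29, adjusted p = 0.516 by edgeR) in RvD6 against vehicle and -0.23 (SE 0.54, -1.37 to 0.91) in RvD6si against vehicle. With RvD6si against RvD6 it was 0.64 (SE 0.55, 95% interval -0.52 to 1.79, adjusted p = 0.786 by edgeR), so a difference of up to 3.47-fold between the lipids lies within the interval. With the muscle, marrow and sensory neuron marker levels as covariates, the value in RvD6 against vehicle was -0.16, -1.04 and -0.59. Between the lipids it was -0.34, 0.81 and 0.38, the opposite direction with the muscle markers only.

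Smad1, which carries bone morphogenetic protein signals to the nucleus (chromosome 8, 79338395 to 79399518, minus strand), and Klf6, a zinc finger factor that promotes axon growth (chromosome 13, 5861482 to 5870394, plus strand), had the narrowest ranges among the transcription factors. Smad1 lay between 28.9 and 49.4 CPM over the 15 libraries. Klf6 lay between 63.9 and 100 CPM, with an SD within groups of 0.18 on the log2 scale that was smaller than that of all but 4.4% of the 1733 genes of like level. For Smad1 the 95% intervals of the log2 fold change were -0.47 to 0.30 in RvD6si against vehicle, -0.42 to 0.35 in RvD6 against vehicle and -0.44 to 0.33 between the lipids. For Klf6 they were -0.43 to 0.15, -0.30 to 0.28 and -0.42 to 0.16. Changes of Klf6 beyond 1.21-fold upward or below 0.74 of the vehicle or RvD6 level were therefore outside all 3 intervals.

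Gap43, the growth cone protein that growing and injured axons carry (chromosome 16, 42248442 to 42340651, minus strand), ranked above 97% of the genes tested by level per kilobase of exon. Vehicle libraries stood at 154, 156, 190, 137 and 211 CPM, RvD6 libraries at 173, 132, 147, 126 and 119 CPM, and RvD6si libraries at 162, 191, 183, 155 and 141 CPM. Of the RvD6 libraries, 3 lay below the lowest vehicle library. RvD6 against vehicle gave a log2 fold change of -0.28 (SE 0.15, 95% interval -0.59 to 0.03), with an adjusted p of 0.417 by edgeR. The sensory neuron markers were lower over the same libraries, with a median log2 fold change of -0.32 over 13 genes, of which 5 were lower at an unadjusted p under 0.05 and 0 passed the adjusted test. The value of Gap43 was -0.11 with the mean level of these markers as a covariate, -0.10 with that of the marrow markers and -0.24 with that of the muscle markers. Since the levels of these markers differ between the groups, such a fit also takes up part of the difference between treatments. RvD6si against vehicle gave -0.03 (SE 0.15, 95% interval -0.33 to 0.28), and the lipids differed by 0.25 (SE 0.15, 95% interval -0.05 to 0.56, adjusted p = 0.655 by edgeR).

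Stmn4, a neuronal microtubule regulator of the stathmin family (chromosome 14, 66344296 to 66361680, plus strand), had few counts, 8 to 50 per library. Sprr1a, a small proline-rich protein of epithelia that injured neurons also make (chromosome 3, 92483952 to 92485895, minus strand), was near the limit of what these libraries can measure. A count of 3, the limit that a count of 0 allows, corresponds to 0.302 to 0.680 CPM in these libraries, for counting error only. Stmn4 was counted 41, 10, 17, 10 and 16 times in vehicle, 8, 20, 11, 25 and 9 times in RvD6, and 10, 50, 27, 19 and 10 times in RvD6si. Sprr1a was counted 0, 18, 3, 1 and 20 times in vehicle, 0, 6, 4, 12 and 12 times in RvD6, and 16, 6, 8, 9 and 8 times in RvD6si. All 5 RvD6si libraries held Sprr1a reads, while 1 vehicle and 1 RvD6 library held none. In RvD6si the log2 fold change from vehicle was 0.57 for Stmn4 (95% interval -0.58 to 1.71) and 0.53 for Sprr1a (95% interval -1.51 to 2.57), and for RvD6 against vehicle 0.06 (-1.10 to 1.21) and 0.05 (-2.01 to 2.12). Between the lipids the values were 0.51 for Stmn4 (95% interval -0.64 to 1.66) and 0.47 for Sprr1a (95% interval -1.59 to 2.53). The interval of Sprr1a in RvD6si against vehicle reaches up to 5.93-fold. With the muscle, marrow and sensory neuron marker levels as covariates, the values in RvD6 against vehicle were -0.55, 0.69 and -0.26 for Stmn4 and -0.05, 0.32 and -0.91 for Sprr1a. The summed keratinocyte and epithelium markers lay above all vehicle libraries (at most 4.79 CPM) in every RvD6 library (at least 4.97 CPM), and their part in the Sprr1a counts was not tested.

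Ecel1, an endopeptidase induced in injured neurons (chromosome 1, 87147655 to 87156521, minus strand), failed the filter on low counts and was not tested with the others. Vehicle libraries held 0, 0, 2, 4 and 0 counts, RvD6 libraries 49, 0, 22, 3 and 7, and RvD6si libraries 27, 0, 0, 15 and 0. RvD6 replicates 6 and 8 and RvD6si replicates 11 and 14 thus held most of the 129 counts, and 7 libraries held none. Each group contained at least 1 library without a count. Without the filter, edgeR gave a log2 fold change of 3.75 for RvD6 against vehicle (adjusted p = 0.319), and DESeq2 gave 3.88 with all samples (adjusted p = 0.223) and 3.89 with these groups alone (adjusted p = 0.0961). Where Ecel1 passed the filter with 1 library left out, the edgeR value lay between 3.43 and 4.94 (adjusted p = 0.242 to 0.473 by edgeR). For RvD6si against vehicle the unfiltered edgeR value was 3.00 (adjusted p = 0.373 by edgeR) and that of DESeq2 3.09, for which DESeq2 gave no adjusted p.

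Gadd45a, which is induced by cell stress and DNA damage (chromosome 6, 67035096 to 67037457, minus strand), was measured at 22.8, 18.6, 14.5, 5.77 and 14.6 CPM in vehicle, 13.6, 13.6, 20.3, 8.23 and 15.7 CPM in RvD6, and 13.7, 13.1, 17.4, 14.5 and 26.7 CPM in RvD6si. The highest level was in RvD6si replicate 15 and the lowest in vehicle replicate 4, and the ranges of all groups overlapped. The log2 fold change was 0.16 (SE 0.32, 95% interval -0.52 to 0.83) in RvD6si against vehicle, -0.10 (SE 0.32, -0.78 to 0.58) in RvD6 against vehicle and 0.25 (SE 0.33, -0.43 to 0.94) between the lipids. For RvD6 against vehicle it was 0.41, -0.32 and 0.38 with the muscle, marrow and sensory neuron marker levels as covariates. Gadd45a shares 337 exon bases with E230016M11Rik on the other strand, and reads there were not counted for either gene.

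The members did not vary as one group from library to library. After the group means were removed, the 36 pairs of the 9 tested members had a median absolute Spearman correlation of 0.16 over 15 libraries, and 34 pairs lay between -0.35 and 0.35. Sox11 and Smad1 were the closest pair, with a Spearman correlation of 0.76 and a Pearson correlation of 0.76 (0.73 without the 2 libraries farthest from the median of Sox11). Of 16567 genes, 61 were closer to Sox11 than Smad1 was. Atf3 and Stmn4 went opposite ways (Spearman -0.62, Pearson -0.69, and -0.57 without the 2 farthest libraries). These are descriptions over libraries that share preparation, depth and tissue composition.

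**Figure D4:**
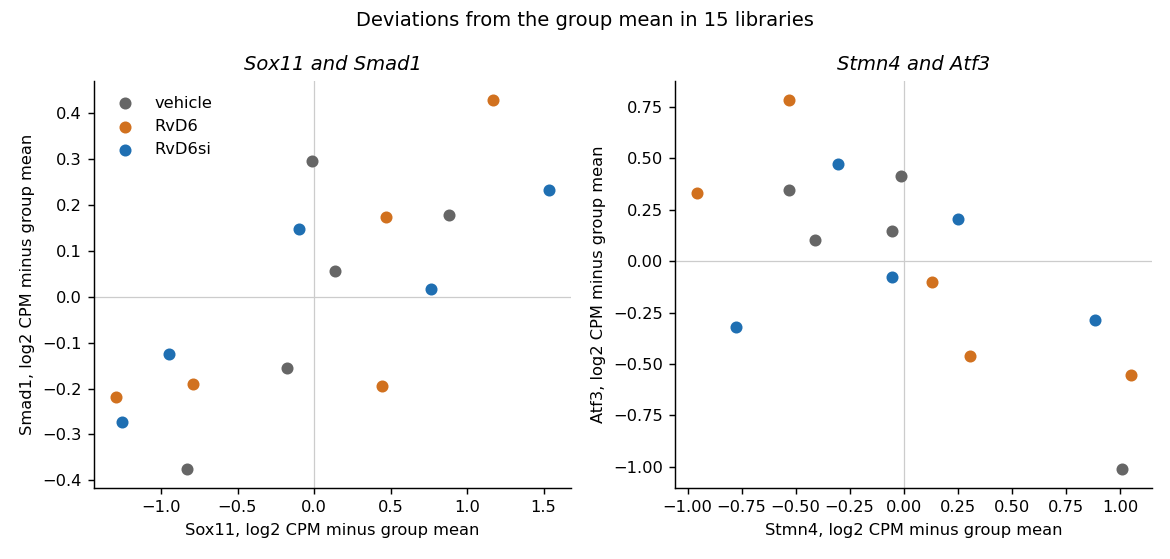
Deviation of log2 CPM from the group mean in each of the 15 libraries (points, coloured by group), for Smad1 against Sox11 and for Atf3 against Stmn4. Libraries with more Sox11 than their group held more Smad1 (Spearman 0.76), and libraries with more Stmn4 held less Atf3 (Spearman -0.62).

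The genes closest to each member by the same measure were not members. Atf3 was closest to Mt1, the metallothionein (Spearman 0.82), Jun to Wwox (0.90), Sox11 to Atxn7l3 (0.91) and Smad1 to Map2k7, a kinase of the JNK pathway (0.95). Klf6 was closest to Sparc (0.88), Gap43 to Lrrc4 and to the glutamate receptor Gria1 (0.84 each), Stmn4 to the ephrin receptor Epha5 (0.84), Sprr1a to Il7r (0.87) and Gadd45a to Tpr (0.85). Each is the highest of 16567 correlations over 15 libraries.

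The members were then set beside 125 other genes of the axon injury response in 5 lists, of which 101 passed the filter. In RvD6si against vehicle 0 of these 101 genes changed by edgeR, with 15 higher (14.9%, beside 8.69% of all genes tested) and 8 lower (7.92%, beside 7.3%) at an unadjusted p under 0.05. Their median log2 fold change was 0.16, beside 0.02 for all genes. DESeq2 called 9 higher and 3 lower among the 117 that it tested, where it called 2.8% of all 32491 genes. It was run without the filter on low counts, which 16567 genes passed. The 32491 genes thus hold a larger part of low counts than the lists do, and these shares are not over like genes. For RvD6 against vehicle edgeR called 0 and DESeq2 with all samples 0, while 5 genes were higher (4.95%, beside 7.63% of all genes) and 11 lower (10.9%, beside 5.99%) at an unadjusted p under 0.05. Between RvD6si and RvD6 both tools called 0, with 8 higher (7.92%, beside 4.18% of all genes) and 0 lower (beside 4.64%) at an unadjusted p under 0.05. The genes of the lists were chosen with results of these data known, so these shares are descriptions.

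Among 22 tested transcription factors of the regeneration programme, 2 were higher and 2 lower at an unadjusted p under 0.05 in RvD6si against vehicle, beside 8.69% and 7.3% of all genes tested. Junb, another Jun family subunit of AP-1, stood at 8.53 to 20.2 CPM in RvD6si, 3.68 to 6.54 CPM in vehicle and 3.31 to 7.21 CPM in RvD6. The RvD6si libraries did not overlap with either group, as for 4.91% of all genes tested against vehicle and 1.81% against RvD6. Junb was named for its small p, which favours groups without overlap. Its log2 fold change was 1.27 against vehicle (SE 0.33, adjusted p = 0.0706 by edgeR and 0.00506 by DESeq2) and 1.00 against RvD6 (SE 0.33, adjusted p = 0.32 by edgeR). Ddit3, the stress factor CHOP, was at 16.6 to 25.8 CPM in RvD6si, 18.1 to 24.5 CPM in RvD6 and 29 to 42.8 CPM in vehicle. Neither lipid group overlapped with vehicle for Ddit3, also named for its small p. The same held for 4.91% of all genes tested in RvD6si and 3.77% in RvD6. The log2 fold change of Ddit3 was -0.67 in RvD6si (adjusted p = 0.0913 by edgeR, 0.0105 by DESeq2) and -0.60 in RvD6 (adjusted p = 0.191 by edgeR). Atf4, a stress factor upstream of Ddit3, was at 96 to 114 CPM in RvD6 and 114 to 189 CPM in vehicle (log2 fold change -0.48, adjusted p = 0.191 by edgeR). Stat3, which carries cytokine signals after injury, was at 191 to 293 CPM in RvD6si and 120 to 160 CPM in RvD6, with a log2 fold change of 0.56 between the lipids (SE 0.16, adjusted p = 0.215 by edgeR). The Stat3 value was 0.27 with the sensory neuron marker level as a covariate, 0.42 with that of the marrow markers and 0.58 with that of the muscle markers.

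**Figure D5:**
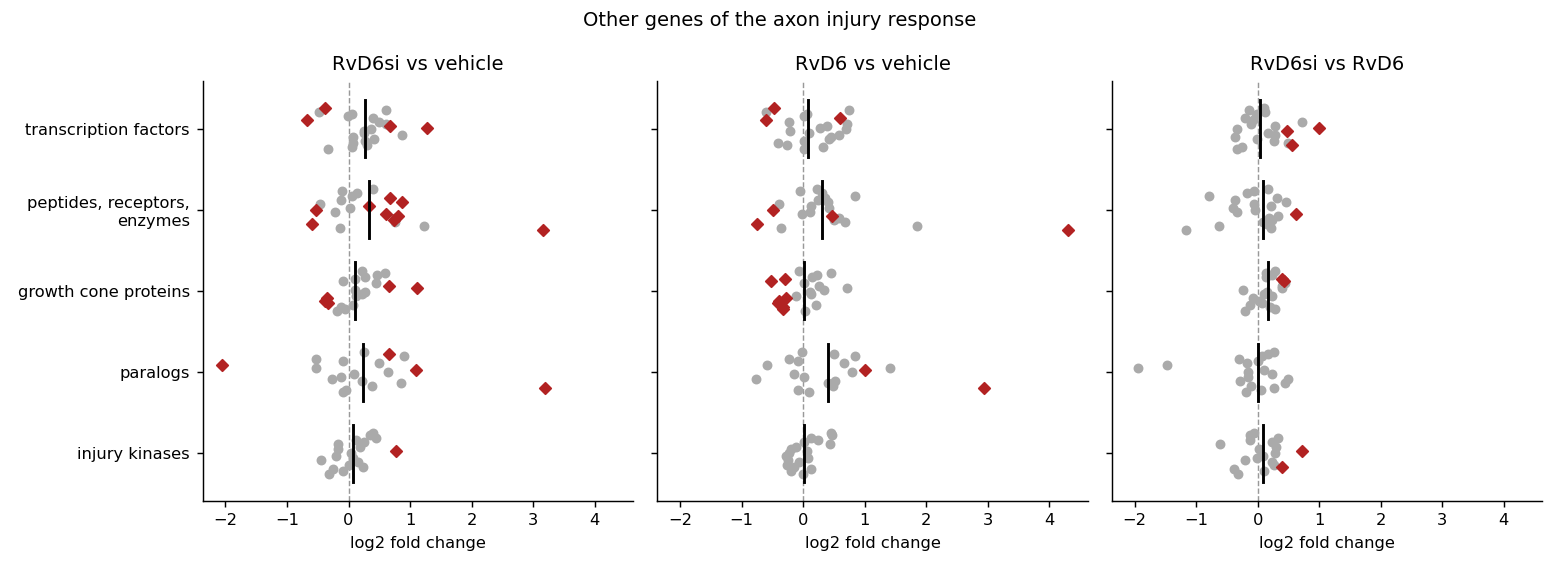
log2 fold change (x axis) of each tested gene of the 5 injury lists (rows) in the 3 comparisons; red diamonds have an unadjusted p under 0.05, grey circles do not, and black bars are list medians. In RvD6si against vehicle 15 diamonds lie above 0 and 8 below, and none of these genes passed the adjusted threshold of 0.05 by edgeR.

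Of 21 tested peptides, receptors and enzymes induced by nerve injury, 7 were higher and 2 lower at an unadjusted p under 0.05 in RvD6si against vehicle (all genes: 8.69% and 7.3%). Lifr, the receptor subunit for leukemia inhibitory factor, was at 251 to 515 CPM in RvD6si and 143 to 236 CPM in vehicle (log2 fold change 0.81, adjusted p = 0.0633 by edgeR, 0.0042 by DESeq2). Cd44, the hyaluronan receptor, was at 107 to 151 CPM in RvD6si and 55.3 to 91 CPM in vehicle (0.67, adjusted p = 0.0742 by edgeR, 0.00899 by DESeq2). Hspb1, the small heat shock protein that supports survival of injured neurons, was at 175 to 205 CPM in RvD6si and 243 to 290 CPM in vehicle (-0.53, adjusted p = 0.0858 by edgeR, 0.0119 by DESeq2). The RvD6si and vehicle libraries did not overlap for any of these 3 genes, where they did not for 4.91% of all genes tested. All 3 were named for the smallest p of their list, which favours groups without overlap. In RvD6 against vehicle, a comparison that uses the same vehicle libraries, all 3 moved the same way. The log2 fold changes there were 0.47 for Lifr, 0.36 for Cd44 and -0.49 for Hspb1 (adjusted p = 0.307, 0.377 and 0.18 by edgeR). Between the lipids they were 0.34, 0.31 and -0.05 (adjusted p = 0.655, 0.643 and 0.961 by edgeR). With the muscle, marrow and sensory neuron marker levels as covariates, the Hspb1 value in RvD6 against vehicle was -0.42, -0.53 and -0.18. In RvD6 the neuropeptide gene Vip reached 95.4 CPM, from 0 in 1 library, against at most 4.1 CPM in vehicle (log2 fold change 4.31, adjusted p = 0.222 by edgeR).

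All 20 growth cone and axon outgrowth genes were tested. In RvD6 against vehicle 0 were higher and 7 lower at an unadjusted p under 0.05, where 7.63% and 5.99% of all genes tested were. The stathmins Stmn2 and Stmn3, relatives of Stmn4, had log2 fold changes of -0.40 each (adjusted p = 0.177 and 0.197 by edgeR), and Dpysl3, a collapsin response mediator protein, -0.52 (adjusted p = 0.255 by edgeR). Stmn3 was at 858 to 1370 CPM in RvD6 and 1500 to 1620 CPM in vehicle. With the mean level of the sensory neuron markers as a covariate the values were -0.21 for Stmn2, -0.17 for Stmn3 and 0.01 for Dpysl3. With that of the muscle markers they were -0.40, -0.33 and -0.24, and with that of the marrow markers -0.35, -0.43 and -0.50. Such fits also take up part of the difference between treatments. In RvD6si against vehicle 2 of the 20 were higher and 3 lower at an unadjusted p under 0.05 (8.69% and 7.3% of all genes), with Marcks, a membrane protein of growth cones, at 1.11 (adjusted p = 0.117 by edgeR, 0.0241 by DESeq2) and Stmn2 at -0.38 (adjusted p = 0.119 by edgeR, 0.0357 by DESeq2). Stmn2 was at 1530 to 1760 CPM in RvD6si and 1990 to 2360 CPM in vehicle.

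Paralogs of the members were tested for 19 of 28 genes, and 3 were higher and 1 lower at an unadjusted p under 0.05 in RvD6si against vehicle, beside 8.69% and 7.3% of all genes. Klf10, a relative of Klf6, had log2 fold changes of 1.10 in RvD6si (adjusted p = 0.122 by edgeR, 0.0321 by DESeq2) and 1.00 in RvD6 (adjusted p = 0.223 by edgeR). Phex, an endopeptidase related to Ecel1, had log2 fold changes of 3.19 and 2.93 (adjusted p = 0.124 and 0.223 by edgeR) from levels of 0 to 0.705 CPM in vehicle. Of 19 axon injury signalling kinases, 1 was higher in RvD6si against vehicle at an unadjusted p under 0.05, a share to be set beside the same 8.69%. This was Map3k12, which encodes the DLK kinase upstream of Jun, at 24.4 to 44.9 CPM in RvD6si and 17.1 to 28.8 CPM in vehicle (log2 fold change 0.78, SE 0.22, adjusted p = 0.0979 by edgeR, 0.0172 by DESeq2). Against RvD6 (16.4 to 29.2 CPM) its log2 fold change was 0.71 (SE 0.22, adjusted p = 0.3 by edgeR).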

How the data were processed

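RNA of 15 TG was sequenced after an adapted Smart-seq2 protocol (poly(A)-primed, amplified cDNA, no strand information). The deposited values are raw counts per gene: the authors aligned reads to GRCm38 with Rsubread and counted them on GENCODE M22 exons with featureCounts (Subread 1.6.5 in the submitters' processing notes, while the table's header names an earlier version), so multi-mapping reads and reads on several genes were left out. The table has 55573 genes, all 15 columns matched the labels, and 99.7% of genes took symbols from GENCODE M21. Samples were grouped by the treatment label. The members and gene lists were chosen with earlier results of these data known.

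Counts were tested in R 4.3.3 with edgeR 4.0.16 (TMM, filterByExpr with a minimum count of 10 and a minimum total of 15, quasi-likelihood F test, 3 groups in one fit) over 16567 genes, with p-values adjusted after Benjamini-Hochberg and called below 0.05. The 95% intervals use the SE implied by the F statistic. Correlations used log2 CPM (prior count 2) minus group means. Alternatives were DESeq2 1.42.0, fits of 2 groups, RLE, other filters, removal of trends on length or GC (lowess, span 0.3; GC of the longest M21 transcript, as no genome was used here), each library left out, and 3 marker scores as covariates, added after the data had been seen. Named genes were all members, up to the 3 genes of each list with the smallest p per comparison, and the 3 genes most like each member. Promoter letters and their 7 patterns were searched in Python 3.11.15. Pairs of libraries of a group had a chi-square per degree of freedom of 11.3 to 49.2 over genes with at least 20 counts in the pair. None was therefore a copy, and over these genes libraries differed by more than counting error. Abundant genes weigh most in this value. It does not show that depth was without effect on members with few counts, such as Sprr1a, Stmn4 and Ecel1. The labels do not say whether each sample was 1 animal, so p-values measure the spread between these samples.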

Additional observations from a re-analysis of the deposited data

Results flagged for a closer look

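Each of the 10 members was examined in each group of 5 libraries for a value far from the others, 30 groups of values in all. Stmn4 in vehicle was flagged. Replicate 1 held 4.13 CPM (41 counts) and the nearest other vehicle library 1.89 CPM, a gap of 0.774 of the whole range, above the critical value of 0.71 for 5 samples. Chance flags about 1 in 20 groups, so 1 of 30 is not more than chance gives. Without vehicle replicate 1 the log2 fold change of Stmn4 was 0.96 in RvD6si against vehicle (adjusted p = 0.435 by edgeR).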

How the results depend on the processing

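No member was called in any comparison under any of the 26 settings, 23 listed at the outset and 3 added after the data had been seen. Of 694 values of the 9 tested members, 639 kept their direction, 55 reversed and 0 passed the threshold. Every reversed value of a member belongs to a comparison whose main 95% interval includes 0. The cause of the reversals was not tested.

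In RvD6si against vehicle, Gap43 turned to 0.17 with the length trend removed and 0.02 with the GC trend removed. In RvD6 against vehicle, Klf6 became 0 with DESeq2 on all samples and with RLE, Klf6 became 0.03 and Smad1 0.01 with at least 10 counts in every sample, Gadd45a became 0 with the length trend removed and Smad1 0.02 with the GC trend removed. With the muscle score as a covariate, the values in RvD6 against vehicle were 0.06 for Atf3, 0.32 for Smad1, -0.55 for Stmn4, -0.05 for Sprr1a and 0.41 for Gadd45a, and between the lipids -0.34 for Sox11, -0.36 for Gadd45a, -0.03 for Klf7, -0.05 for Cd44, -0.11 for Nmnat2 and 0 for Map2k4. With the marrow score they were 0.01 for Smad1 and 0.11 for Klf6 in RvD6 against vehicle, and 0.09 for Atf3 and -0.21 for Stmn4 between the lipids. With the sensory neuron score they were 0.10 for Jun, 0.01 for Smad1, -0.26 for Stmn4, -0.91 for Sprr1a, 0.38 for Gadd45a, 0.01 for Dpysl3 and 0 for Mapk10 in RvD6 against vehicle, and -0.24 for Jun, -0.22 for Gadd45a, -0.14 for Dpysl3 and -0.11 for Tubb2b between the lipids.

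Leaving out each library in turn gave, in RvD6si against vehicle, ranges of -0.22 to 0.06 for Jun, -0.81 to 0.06 for Sox11, -0.09 to 0.07 for Gap43 and -0.06 to 0.34 for Gadd45a. For RvD6 the ranges against vehicle were -0.16 to 0.04 for Smad1, -0.09 to 0.07 for Klf6, -0.33 to 0.45 for Stmn4, -0.34 to 0.61 for Sprr1a and -0.31 to 0.09 for Gadd45a, and between the lipids -0.11 to 0.07 for Smad1 and -0.01 to 0.27 for Jun.

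Of the 125 genes in the injury lists, 0 were called in RvD6si against vehicle by the main test, 12 by DESeq2 on all samples, 10 by DESeq2 on 2 groups, 1 by edgeR on 2 groups, 3 with at least 10 counts in every sample, 1 with the sensory neuron score, and 0 to 2 with a library left out (2 without RvD6 replicate 9, 1 without RvD6si replicate 12). In RvD6 against vehicle DESeq2 on 2 groups called 5 and the main test 0. Over all genes tested, the calls in RvD6si against vehicle were 111 by the main test, 909 and 980 by DESeq2 on all samples and on 2 groups, 315 with at least 10 counts in every sample, 63 with the length trend removed, 226 with the sensory neuron score and 0 (without RvD6si replicate 11) to 229 (without RvD6 replicate 9) with a library left out. For RvD6 they were 0, 367 and 663 by DESeq2, 38 by edgeR on 2 groups, 56 without the filter, 24 with at least 10 counts, 3 and 1 with the muscle and marrow scores, and 0 to 51 (without RvD6si replicate 15) with a library left out. Between the lipids they were 39, 185 and 182 by DESeq2, 17 by edgeR on 2 groups, 59 without the filter, 23 with at least 10 counts, 2, 3 and 0 with the muscle, marrow and neuron scores, and 2 (without RvD6si replicate 11, 13 or 14) to 156 (without RvD6si replicate 15) with a library left out. No paired analysis was possible because the groups share no replicate number. The counts of Sprr1a, Stmn4 and Ecel1 reach at most 20, 50 and 49 in a library.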
